A study of Mus musculus with 4 samples.

Results

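The genes of the TGF-beta, activin and BMP pathway were followed in 4 RNA sequencing libraries. The labels give them as flow-sorted uterine NK cells (CD45+ NK1.1+ cells lacking CD3) of females pregnant by B6 males, taken at gd11.5 (gestational day). The 49 genes were chosen by name from the pathway (ligands, receptors, latent TGF-beta binding proteins, SMADs, co-repressors, antagonists and targets), and all 49 were among the 21993 genes of the files. The mice carried Cre expressed from Ncr1 (Ncr1Cre, n = 2 libraries) or carried no Cre (control, n = 2 libraries). The labels do not state whether the replicates were separate mice or pools, so the p-values rest on a spread between libraries that may be technical. Cre from Ncr1 acts in cells that express the NK-cell receptor NKp46, which limits the model to such cells.

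Ligands of this family are secreted dimers that join a type II and a type I receptor kinase. TGF-beta and activin receptors pass the signal to SMAD2 and SMAD3, and BMP receptors pass it to SMAD1 and SMAD5, and both sets of SMADs enter the nucleus with SMAD4. TGF-beta is secreted in a latent complex that latent TGF-beta binding proteins hold in the matrix, while BMPs and activins are checked by secreted antagonists such as noggin, chordin and follistatin. In the mouse uterus BMP2 is needed for decidualization, and TGF-beta is known to restrain NK-cell cytotoxicity and to favour tissue-resident traits of NK cells.

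Levels are given in FPKM (fragments divided by transcript length and by the library's mapped fragments), which allow levels of different genes to be set side by side. The depth was estimated at 21020000 to 38500000 fragments per library, with an error that is not known. At that depth a single fragment on a 1 kb transcript gives 0.0260 to 0.0476 FPKM, and values well below 1 FPKM rest on few fragments. Genes whose mean over the 4 libraries reached 1 FPKM were tested with limma on log2(FPKM + 1). A gene was called at a Benjamini-Hochberg adjusted p under 0.05 over all 11762 genes tested. Log2 fold changes were computed on the log2(FPKM + 1) scale as Ncr1Cre minus control, with their standard error (SE), and understate the change of low genes. Their median over all tested genes was 0.11, and values relative to that median are given where stated.

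Transcripts that define NK cells were low in both genotypes. Ncr1, whose promoter drives the Cre, had 0 and 0.152 FPKM in Ncr1Cre against 0.136 and 0.359 FPKM in control, and 8 of the 15 NK-cell markers did not reach the filter. Of the 7 that did, 5 were higher and 0 lower in Ncr1Cre, beside 30.9% and 17.6% of all tested genes. The same shares stand beside the marker counts that follow. The summed level of the 15 NK-cell markers was 44.6 and 45.6 FPKM in Ncr1Cre against 30.0 and 29.9 FPKM in control. The 13 markers of stroma and fibroblasts summed to 14696 and 14686 FPKM in Ncr1Cre against 32879 and 33438 FPKM in control, and 13 of 13 fell. The 10 epithelial markers summed to 49627 and 52875 FPKM in Ncr1Cre against 10097.5 and 10235 FPKM in control, and 10 of 10 rose. Most of these sums came from Prap1, with 46369 and 49335 FPKM in Ncr1Cre against 9530 and 9667 FPKM in control. The 9 smooth-muscle markers summed to 222 and 215 FPKM in Ncr1Cre against 607 and 595 FPKM in control, and 8 of the 8 tested fell (median log2 fold change -2.70). Des had the largest part of these sums, with 144 and 143 FPKM in Ncr1Cre against 254 and 245 FPKM in control. Macrophage and dendritic-cell markers rose in 8 of 8 tested and trophoblast markers in 5 of 5, while 4 of 8 tested endothelial markers rose and 2 fell. The 6 erythroid markers summed to 666 and 785 FPKM in Ncr1Cre against 69.2 and 77.3 FPKM in control, and 4 of the 4 tested rose (median log2 fold change 3.14). Mean levels in control were below 1 FPKM for Itgam (0.787) and C1qc (0.773) of the macrophage list. The same held for Hbb-y (0.269) and Alas2 (0.677) of the erythroid list. These genes reached the filter through Ncr1Cre alone, so their rise is given as a description. The part of these cell types in the results below was not tested, and in such bulk libraries fewer cells of a type and less RNA per cell cannot be told apart.

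Most pathway genes were lower in the Ncr1Cre libraries, and the ligand gene Tgfb2 stood out as the largest rise among them. Of the 49 genes, 46 reached the filter. Among these 5 rose and 25 fell, and 1 of the 5, Bmpr1b, reached the filter through its level in Ncr1Cre alone. Over all tested genes 48.5% were called, 30.9% as higher and 17.6% as lower. After rescaling the libraries to a common median, 4 of the 46 rose and 29 fell, beside 22.4% and 26.1% of all tested genes. Quantile normalization gave 4 and 29 as well, beside 22.2% and 25.8% of all tested genes (48.0% in either direction). With the median fold change set to 0, a choice made after seeing the data, 4 rose and 27 fell, beside 24.9% and 22.9% (47.8% in either direction). Counted without a test, 9 of the 46 were higher and 30 lower in both Ncr1Cre libraries than in both control libraries, beside 46.4% and 29.9% of all tested genes (76.2% in either direction). The median log2 fold change of the 46 was -0.43, against 0.11 over all tested genes. The summed level of the 49 genes was 2104 and 1919.6 FPKM in Ncr1Cre against 3268 and 2998 FPKM in control.

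**Figure D1:**
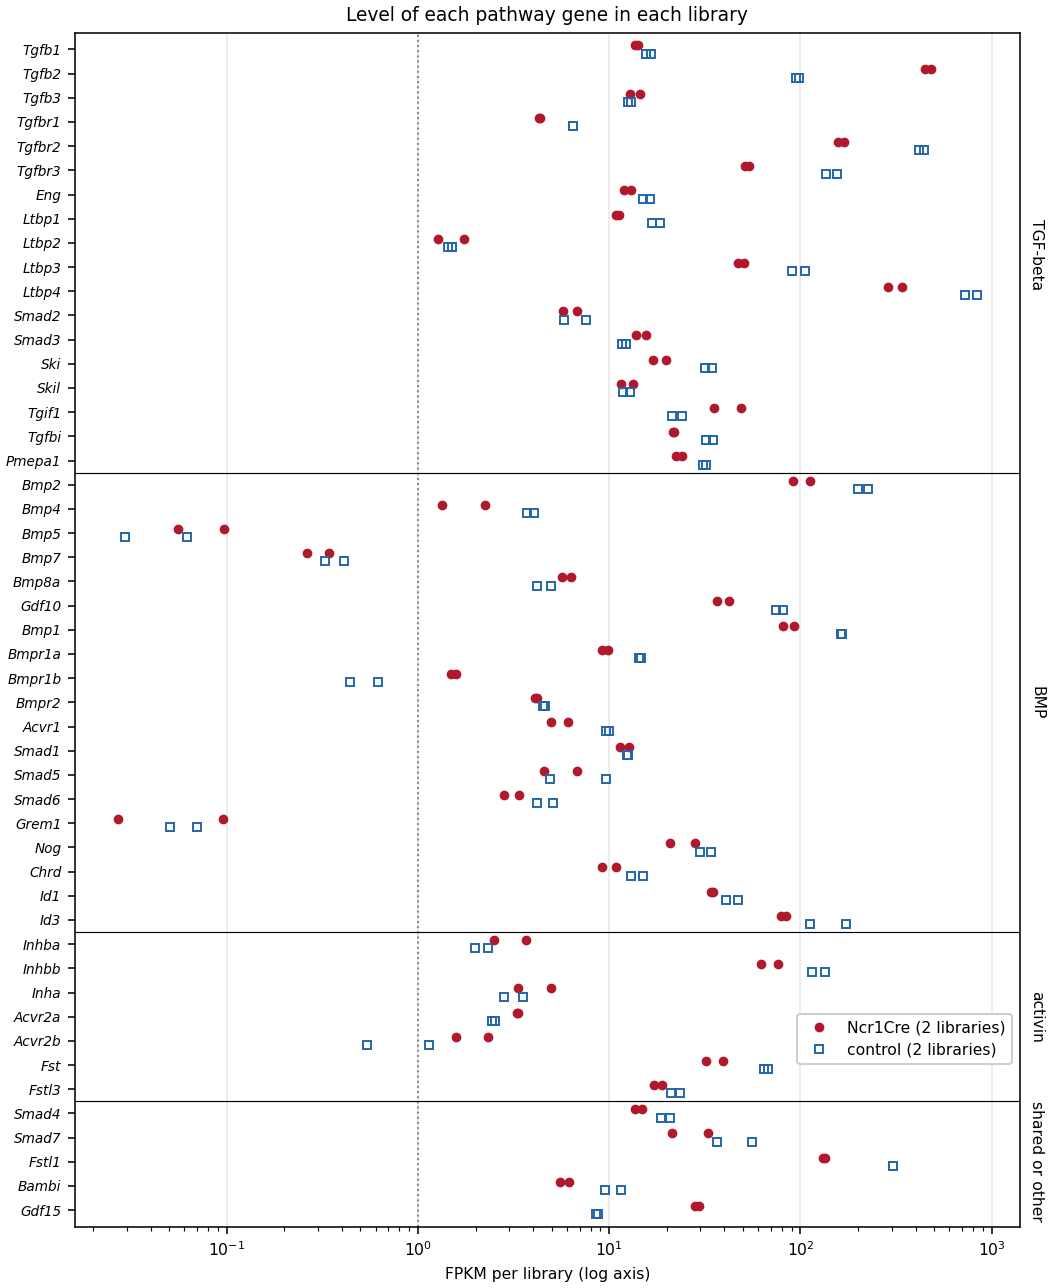
FPKM of each of the 49 pathway genes in each library on a log axis, with filled circles for the 2 Ncr1Cre libraries and open squares for the 2 control libraries, grouped by branch. The dotted line marks 1 FPKM. Tgfb2 lies far to the right of its control values, whereas Tgfbr2, Tgfbr3 and Ltbp4 lie to the left of theirs.

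Of the 3 TGF-beta ligand genes, 1 passed the test, beside 48.5% of all tested genes. Tgfb2, a ligand that needs the co-receptor TGFBR3 for high-affinity binding to its type II receptor, had 484 and 447 FPKM in the Ncr1Cre libraries, against 97.8 and 95.1 FPKM in the control libraries. Both Ncr1Cre libraries lay far above both control libraries, and the rise was 4.82-fold (log2 fold change 2.26, SE 0.069, adjusted p = 0.000126). It ranked 118 among the rises of all 11762 tested genes. Tgfb1, the isoform most immune cells make, had 13.6 and 14.1 FPKM in Ncr1Cre against 16.5 and 15.6 FPKM in control. That difference did not pass the test (-0.20, SE 0.0792, adjusted p = 0.0972), although it did after median rescaling (-0.36, adjusted p = 0.0181), after quantile normalization (0.0217) and with the median fold change set to 0 (0.0287). Tgfb3 had 14.5 and 12.9 FPKM in Ncr1Cre against 12.5 and 13.1 FPKM in control. Its groups overlapped (0.09, SE 0.0927, adjusted p = 0.454). Tgfb2 therefore made up 94.5% and 94.3% of the summed FPKM of the 3 isoforms in Ncr1Cre, against 77.1% and 76.9% in control.

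The promoters below are those of the pathway genes on which these results turn: the ligand genes Tgfb2 and Gdf15, which rose most among the 49, the receptor gene Tgfbr2 and the BMP-binding glycoprotein gene Fstl1, which fell, and Id3, a gene known to be switched on by BMP-activated SMADs. They are the 250 bases before each RefSeq start in build GRCm38.p6, whereas the FPKM were made on mm9. Capitals mark the letters CAGAC or, read from the other strand, GTCTG, which is the box that SMAD3 and SMAD4 are known to bind.
Tgfb2, chr1:186705990-186706239, minus strand: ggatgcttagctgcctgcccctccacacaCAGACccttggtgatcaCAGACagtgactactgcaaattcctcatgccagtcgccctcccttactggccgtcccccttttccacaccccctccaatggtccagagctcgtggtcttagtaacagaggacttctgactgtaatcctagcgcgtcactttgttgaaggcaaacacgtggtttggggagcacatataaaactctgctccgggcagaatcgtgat
Gdf15, first listed start, chr8:70632457-70632706, minus strand: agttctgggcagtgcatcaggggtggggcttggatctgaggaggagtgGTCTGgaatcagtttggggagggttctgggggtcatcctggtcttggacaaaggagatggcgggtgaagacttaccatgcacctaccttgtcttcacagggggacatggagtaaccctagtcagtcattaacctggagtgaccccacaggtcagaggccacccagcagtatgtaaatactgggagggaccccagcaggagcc
Gdf15, second listed start, chr8:70632096-70632345, minus strand: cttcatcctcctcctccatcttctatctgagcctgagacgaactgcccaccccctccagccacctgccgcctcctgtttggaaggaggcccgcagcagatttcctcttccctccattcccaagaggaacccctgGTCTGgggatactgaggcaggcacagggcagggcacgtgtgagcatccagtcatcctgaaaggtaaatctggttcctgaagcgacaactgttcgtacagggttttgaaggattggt
Tgfbr2, chr9:116175364-116175613, minus strand: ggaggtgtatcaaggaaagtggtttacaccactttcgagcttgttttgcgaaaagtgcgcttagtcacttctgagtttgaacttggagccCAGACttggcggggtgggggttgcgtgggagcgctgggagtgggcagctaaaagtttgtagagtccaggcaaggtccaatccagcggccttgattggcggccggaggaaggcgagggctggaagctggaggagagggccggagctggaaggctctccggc
Fstl1, chr16:37776805-37777054, plus strand: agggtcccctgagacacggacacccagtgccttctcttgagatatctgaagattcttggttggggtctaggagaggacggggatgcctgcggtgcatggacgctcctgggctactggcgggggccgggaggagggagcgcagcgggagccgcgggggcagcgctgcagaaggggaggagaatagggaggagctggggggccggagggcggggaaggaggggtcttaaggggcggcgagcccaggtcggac
Id3, chr4:136143572-136143821, plus strand: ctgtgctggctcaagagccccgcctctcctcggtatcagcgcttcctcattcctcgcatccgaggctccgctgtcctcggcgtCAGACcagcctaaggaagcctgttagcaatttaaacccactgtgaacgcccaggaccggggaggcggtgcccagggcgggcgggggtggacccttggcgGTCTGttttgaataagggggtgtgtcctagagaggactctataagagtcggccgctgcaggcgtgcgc
The Tgfb2 window held the box at 2 places, as did that of Id3, while each Gdf15 window and the Tgfbr2 window held it at 1 place and the Fstl1 window at 0. Of the 49 pathway genes, 35 had a promoter in the table. CAGAC on either strand was present in at least 1 start of 5 of 5 genes that rose, of 8 of 17 that fell and of 6 of 11 that were tested without a call, beside 45.8% of all 27025 genes in the table. The core of the BMP response element, GGCGCC, was present in 0 of 5, 6 of 17 and 2 of 11 in the same order, beside 10.8% of all genes. The cyclic AMP response element TGACGTCA was present in 0 of 5, 1 of 17 and 0 of 11, beside 1.77% of all genes. The printed windows held neither of these last 2 motifs, and a match in letters is not a bound site. The 5 genes that rose include Bmpr1b, which reached the filter through Ncr1Cre alone, and Acvr2a, whose call was lost without any 1 library. A gene with more than 1 listed start, such as Gdf15, had more than 1 window in which to match. Differences between these shares were not tested.

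All 4 TGF-beta receptor genes fell, beside 17.6% of all tested genes. Tgfbr2, the type II receptor kinase that binds TGF-beta first, had 169 and 158 FPKM in the Ncr1Cre libraries, against 442 and 418 FPKM in the control libraries. It was 2.63-fold lower (log2 fold change -1.39, SE 0.0698, adjusted p = 0.000264), with no overlap of the genotypes. Tgfbr3, which encodes the co-receptor betaglycan, had 51.4 and 53.9 FPKM in Ncr1Cre against 137 and 156 FPKM in control. It showed the largest fall among the 49 genes on the log2 scale (-1.45, SE 0.0865, adjusted p = 0.000367, 2.78-fold lower). Tgfbr1, the type I kinase, was far less abundant than Tgfbr2 in every library, at 4.36 and 4.30 FPKM in Ncr1Cre against 6.45 and 6.46 FPKM in control (-0.48, SE 0.0881, adjusted p = 0.00947). Leaving out control replicate 1 or control replicate 2 ended this call (adjusted p = 0.0513 and 0.05002). Eng, the endothelial co-receptor endoglin, had 11.9 and 13.0 FPKM in Ncr1Cre against 16.3 and 15.1 FPKM in control (-0.31, SE 0.0895, adjusted p = 0.0375). The call for Eng was lost without any 1 of the libraries, with adjusted p of 0.143 and 0.0557 without Ncr1Cre replicates 1 and 2 and of 0.159 and 0.0735 without control replicates 1 and 2.

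Ligand and receptor levels thus stood in a different proportion in the 2 genotypes. The ratio of Tgfb2 to Tgfbr2 FPKM was 2.86 and 2.84 in Ncr1Cre, against 0.221 and 0.228 in control, so the order of the 2 genes was opposite. Tgfbr3 relative to Tgfbr2 was 0.304 and 0.342 in Ncr1Cre and 0.309 and 0.372 in control, and these ratios overlapped. Tgfbr2 exceeded Tgfbr1 38.8-fold and 36.6-fold in Ncr1Cre, against 68.5-fold and 64.7-fold in control. With 2 libraries against 2, no exact permutation test of such a ratio can go below p = 0.333, so none is given.

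**Figure D2:**
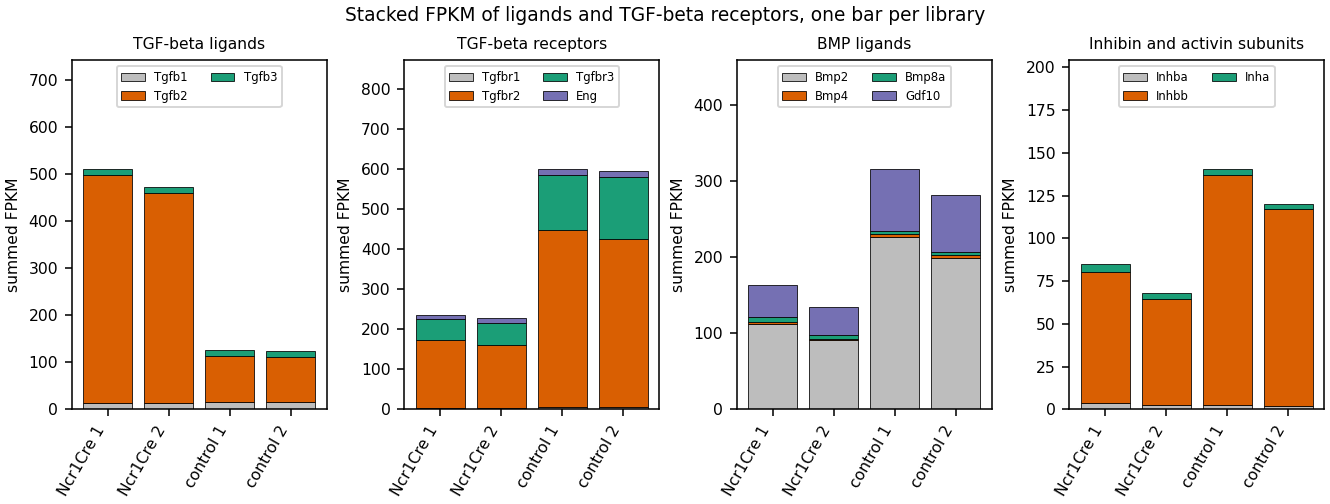
Summed FPKM per library, stacked by gene, for TGF-beta ligands, TGF-beta receptors, the 4 tested BMP ligand genes and the inhibin and activin subunits, with the Ncr1Cre libraries left of the control libraries. The TGF-beta ligand bars are taller in Ncr1Cre and consist mostly of Tgfb2, while the other 3 panels have shorter bars in Ncr1Cre.

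Of the latent TGF-beta binding proteins, which tether latent TGF-beta to fibrillin-rich matrix, 3 of 4 fell, beside 17.6% of all tested genes. Ltbp4, the most abundant of all 49 pathway genes in control libraries, had 340 and 287 FPKM in Ncr1Cre, against 835 and 722 FPKM in control (2.48-fold lower, log2 fold change -1.31, SE 0.116, adjusted p = 0.00102). Ltbp3 had 50.7 and 47.3 FPKM in Ncr1Cre against 105 and 90.0 FPKM in control (-0.98, SE 0.0977, adjusted p = 0.00147). Both genes were lower in each Ncr1Cre library than in each control library. Ltbp1 had 11.3 and 10.8 FPKM in Ncr1Cre against 18.4 and 16.7 FPKM in control (-0.62, SE 0.0879, adjusted p = 0.00429). Ltbp2, which does not bind latent TGF-beta, had 1.74 and 1.27 FPKM in Ncr1Cre against 1.5 and 1.44 FPKM in control, and these overlapped (0.01, SE 0.135, adjusted p = 0.941). Ltbp4 made up 84.2% and 82.9% of the summed FPKM of the 4 genes in Ncr1Cre, against 87.0% in each control library.

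Of the 7 SMAD genes 2 fell and 0 rose, beside 17.6% and 30.9% of all tested genes. Together the 7 genes summed to 89.8 and 76.4 FPKM in Ncr1Cre against 99.7 and 118 FPKM in control. Smad3, an effector of TGF-beta and activin, had 15.6 and 13.8 FPKM in Ncr1Cre against 12.3 and 11.6 FPKM in control (0.28, SE 0.0956, adjusted p = 0.0651). Smad2, the other effector of that branch, lay between 5.72 and 6.77 FPKM in Ncr1Cre and between 5.78 and 7.53 FPKM in control. Smad4, the partner of both branches, fell to 14.8 and 13.6 FPKM in Ncr1Cre, against 20.7 and 18.6 FPKM in control (-0.44, SE 0.0931, adjusted p = 0.0154). Without Ncr1Cre replicate 2 its adjusted p was 0.0541, and without control replicate 1 it was 0.0728. The BMP effector Smad1 lay between 11.4 and 12.8 FPKM in Ncr1Cre and between 12.4 and 12.6 FPKM in control. Smad5 was uneven between replicates, at 4.53 and 6.77 FPKM in Ncr1Cre and 4.90 and 9.60 FPKM in control (adjusted p = 0.522). Neither Smad1, Smad2 nor Smad5 separated the genotypes.

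Of the inhibitory SMADs, Smad6, which acts mainly on BMP receptors, fell to 3.36 and 2.82 FPKM in Ncr1Cre, against 5.09 and 4.20 FPKM in control (-0.46, SE 0.132, adjusted p = 0.0370). The call was lost without Ncr1Cre replicate 2 (adjusted p = 0.113) and without either control replicate (0.159 without replicate 1 and 0.0502 without replicate 2), and also with no filter (0.0693). Smad7, a feedback inhibitor of both branches, had 33.0 and 21.3 FPKM in Ncr1Cre against 36.6 and 55.6 FPKM in control. The genotypes did not overlap, but the spread within each was wide and the gene was not called (-0.75, SE 0.275, adjusted p = 0.0774). It was called without Ncr1Cre replicate 1 (adjusted p = 0.0153), without control replicate 1 (0.0455), after median rescaling (0.0387) and after quantile normalization (0.0497).

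The 3 nuclear co-repressors of SMADs went separate ways. Ski, which holds SMAD complexes inactive, had 19.9 and 16.9 FPKM in Ncr1Cre, against 34.5 and 31.8 FPKM in control (1.80-fold lower, log2 fold change -0.82, SE 0.105, adjusted p = 0.00311). Its relative Skil, a gene that TGF-beta signalling is known to induce, had 11.6 and 13.2 FPKM in Ncr1Cre against 11.9 and 12.8 FPKM in control, so the genotypes overlapped (adjusted p = 0.981). Tgif1, a homeodomain co-repressor of SMAD2, had 35.2 and 48.9 FPKM in Ncr1Cre against 24.1 and 21.2 FPKM in control. It rose 1.86-fold (0.85, SE 0.17, adjusted p = 0.0128), and its adjusted p was 0.0543 without control replicate 2.

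Of the 4 BMP ligand genes that were tested, 3 fell, beside 17.6% of all tested genes. Bmp2, the ligand of decidualizing stroma, had 112 and 91.0 FPKM in Ncr1Cre, against 226 and 199 FPKM in control (2.09-fold lower, log2 fold change -1.06, SE 0.126, adjusted p = 0.00245). Gdf10, also known as BMP3b, had 42.3 and 36.5 FPKM in Ncr1Cre against 81.5 and 74.9 FPKM in control (-0.97, SE 0.0979, adjusted p = 0.00149). Both genes were lower in each Ncr1Cre library than in each control library. Bmp2 made up 68.7% and 67.5% of the summed FPKM of the BMP ligand genes in Ncr1Cre, against 71.3% and 70.5% in control. Bmp4 was low, at 2.25 and 1.33 FPKM in Ncr1Cre against 4.03 and 3.73 FPKM in control (-0.82, SE 0.182, adjusted p = 0.0174). The call ended without control replicate 1 (adjusted p = 0.0728) or control replicate 2 (0.0550). Bmp8a had 6.29 and 5.63 FPKM in Ncr1Cre against 4.94 and 4.19 FPKM in control (0.33, SE 0.116, adjusted p = 0.0707). Its close copy Bmp8b was listed at 0.0655 and 0.0301 FPKM in Ncr1Cre and at 0 in both control libraries, and how reads were split between the copies is not given in the sources used here, so Bmp8a is uncertain. Bmp5 (at most 0.0969 FPKM in any library) and Bmp7 (at most 0.409 FPKM) were below the filter.

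Bmp1 is no ligand but a protease that trims procollagen and cleaves chordin. It had 92.2 and 81.4 FPKM in Ncr1Cre, against 166 and 162 FPKM in control (1.89-fold lower, -0.91, SE 0.0819, adjusted p = 0.00107). Of the BMP antagonists, Chrd, which encodes chordin, had 10.8 and 9.18 FPKM in Ncr1Cre against 15 and 12.9 FPKM in control (-0.44, SE 0.120, adjusted p = 0.0324). Chrd was not called without Ncr1Cre replicate 2 (adjusted p = 0.1), without control replicate 1 (0.135) or with no filter on low genes (0.0529). Nog, which encodes noggin, had 28.2 and 20.9 FPKM in Ncr1Cre against 34.0 and 29.7 FPKM in control (-0.38, SE 0.160, adjusted p = 0.110). It was called without Ncr1Cre replicate 1 (adjusted p = 0.0142), after median rescaling (0.0327) and after quantile normalization (0.0385). Grem1, the gene of gremlin, was at or below 0.0958 FPKM in every library.

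Of the 4 BMP receptor genes 2 fell, beside 17.6% of all tested genes, and Bmpr1b had a higher level in Ncr1Cre. Acvr1, which encodes the type I receptor ALK2, had 4.94 and 6.12 FPKM in Ncr1Cre, against 9.61 and 9.99 FPKM in control (1.77-fold lower, log2 fold change -0.73, SE 0.118, adjusted p = 0.00647). The type I receptor gene Bmpr1a had 9.81 and 9.14 FPKM in Ncr1Cre against 14.3 and 14.6 FPKM in control (-0.56, SE 0.0826, adjusted p = 0.00496). Both were lower in each Ncr1Cre library. The related Bmpr1b had 1.5 and 1.59 FPKM in Ncr1Cre against 0.620 and 0.442 FPKM in control (0.73, SE 0.121, adjusted p = 0.00690). Bmpr1b reached the filter through its higher level in Ncr1Cre, so its rise is given as a description. Bmpr2, the type II receptor, had 4.20 and 4.08 FPKM in Ncr1Cre against 4.63 and 4.50 FPKM in control (-0.12, SE 0.0920, adjusted p = 0.347).

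In the activin branch the most abundant 2 of the 7 genes fell, and 1 scarce receptor gene rose. Over all tested genes 17.6% fell and 30.9% rose. Inhbb, the subunit of activin B and inhibin B, had 76.5 and 62.2 FPKM in Ncr1Cre, against 135 and 115 FPKM in control (1.80-fold lower, log2 fold change -0.84, SE 0.132, adjusted p = 0.00585). Fst, which encodes the activin trap follistatin, had 39.3 and 32.2 FPKM in Ncr1Cre against 67.4 and 64.6 FPKM in control (-0.87, SE 0.109, adjusted p = 0.00292). The ratio of Inhbb to Fst was 1.95 and 1.93 in Ncr1Cre and 2.0 and 1.78 in control, and these ratios overlapped. The related antagonist gene Fstl3 had 18.9 and 17.1 FPKM in Ncr1Cre against 23.4 and 20.9 FPKM in control and was not called (-0.29, SE 0.0961, adjusted p = 0.0601), although it was after median rescaling (adjusted p = 0.0123), after quantile normalization (0.0139) and with the median fold change set to 0 (0.0236).

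Inhba, the subunit of activin A, had 3.68 and 2.50 FPKM in Ncr1Cre against 2.32 and 2.0 FPKM in control (0.36, SE 0.171, adjusted p = 0.142, and 0.029 without Ncr1Cre replicate 2). Inha, the subunit that turns activins into inhibins, had 4.94 and 3.32 FPKM in Ncr1Cre against 3.56 and 2.82 FPKM in control, with overlap. The activin type II receptor genes were low and had higher values in Ncr1Cre. Acvr2a had 3.31 and 3.32 FPKM in Ncr1Cre against 2.42 and 2.52 FPKM in control (0.31, SE 0.0968, adjusted p = 0.0478). Its call did not hold without any 1 library (adjusted p between 0.131 and 0.176), with no filter (0.084), or under any of the 3 rescalings (0.145 to 0.265). Acvr2b had 2.32 and 1.58 FPKM in Ncr1Cre against 1.14 and 0.538 FPKM in control and was not called (0.69, SE 0.217, adjusted p = 0.0502). Its mean level in control was below the filter, which it reached through Ncr1Cre alone, so its higher level is given as a description.

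Some genes belong to no single branch. Gdf15, a distant family member made by stressed cells, had 29.4 and 28.1 FPKM in Ncr1Cre, against 8.77 and 8.49 FPKM in control. After Tgfb2 this was the largest rise among the 49 genes, 3.33-fold (log2 fold change 1.63, SE 0.0767, adjusted p = 0.000241). Fstl1, a secreted glycoprotein of mesenchymal cells that binds BMPs, had 131 and 134 FPKM in Ncr1Cre against 306 FPKM in each control library (2.31-fold lower, -1.20, SE 0.0581, adjusted p = 0.00025). Bambi, a pseudoreceptor without a kinase domain that blocks signalling, had 5.53 and 6.19 FPKM in Ncr1Cre against 11.496 and 9.48 FPKM in control (1.79-fold lower, -0.74, SE 0.123, adjusted p = 0.00715).

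The 4 target genes on the list fell, beside 17.6% of all tested genes. Tgfbi, a matrix protein gene induced by TGF-beta, had 21.6 and 21.9 FPKM in Ncr1Cre, against 34.8 and 31.9 FPKM in control (-0.59, SE 0.0778, adjusted p = 0.00338). Pmepa1, a TGF-beta target whose product dampens SMAD2 and SMAD3 signalling, had 24.0 and 22.2 FPKM in Ncr1Cre against 32.2 and 30.9 FPKM in control (-0.43, SE 0.0777, adjusted p = 0.00910). Of the BMP targets, which encode inhibitors of basic helix-loop-helix factors, Id3 had 84.0 and 79.4 FPKM in Ncr1Cre against 173 and 112 FPKM in control (-0.76, SE 0.209, adjusted p = 0.0338, 0.0584 without Ncr1Cre replicate 2 and 0.0631 with no filter). Id1 had 35.0 and 34.2 FPKM in Ncr1Cre against 47.2 and 40.7 FPKM in control (-0.33, SE 0.0928, adjusted p = 0.0350). Id1 was not called without Ncr1Cre replicate 1 (adjusted p = 0.0735), Ncr1Cre replicate 2 (0.0945) or control replicate 1 (0.128). Each of the 4 genes was lower in both Ncr1Cre libraries than in both control libraries, beside 29.9% of all tested genes. Id3 was uneven between the control libraries.

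**Figure D3:**
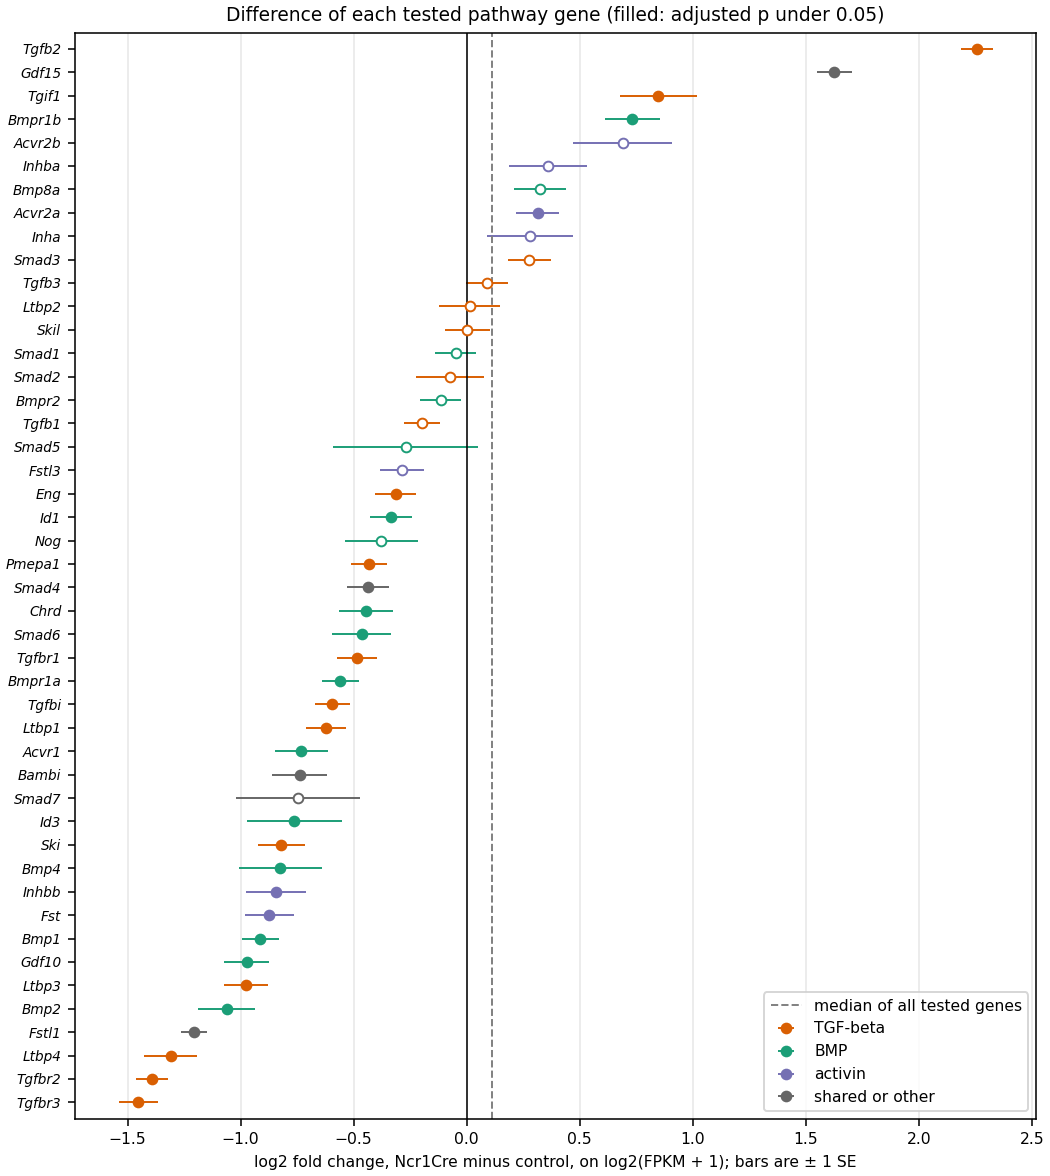
Log2 fold change of the 46 tested pathway genes, Ncr1Cre minus control, sorted by size, with bars of 1 SE. Filled points passed an adjusted p under 0.05, colours give the branch, and the dashed line is the median of all tested genes at 0.11. Tgfb2 and Gdf15 lie farthest to the right and Tgfbr3, Tgfbr2 and Ltbp4 farthest to the left.

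Compared by branch, 2 of the 18 TGF-beta genes rose and 10 fell (median log2 fold change -0.37). Of the 16 tested BMP genes 1 (Bmpr1b) was higher and 10 fell (median -0.45), and of the 7 activin genes 1 rose and 2 fell (median 0.28). Over all tested genes 30.9% were higher and 17.6% lower with a median of 0.11, and the difference between branches was not tested. TGF-beta ligands summed to 512 and 474 FPKM in Ncr1Cre against 127 and 124 FPKM in control, whereas BMP ligands summed to 164 and 135 FPKM in Ncr1Cre against 317 and 282 FPKM in control. The inhibin and activin subunits summed to 85.1 and 68.1 FPKM in Ncr1Cre against 141 and 120 FPKM in control. The sum of TGF-beta ligands was thus 3.13 and 3.51 times that of BMP ligands in Ncr1Cre, and 0.4 and 0.438 times that sum in control. Without control replicate 2 the TGF-beta genes that rose numbered 1, and the pathway genes that rose numbered 3.

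Pathway genes outside the 49 were read from a separate list of 85, of which 84 were in the files and 55 were tested. There were 9 that rose and 29 that fell, beside 30.9% and 17.6% of all tested genes, with a median log2 fold change of -0.38. After median rescaling 6 rose and 35 fell, beside 22.4% and 26.1% of all tested genes. Among other receptors, the activin type I receptor gene Acvr1b had 13.8 and 14.6 FPKM in Ncr1Cre against 6.21 and 5.65 FPKM in control (log2 fold change 1.13, SE 0.0913, adjusted p = 0.000781). The endothelial type I receptor gene Acvrl1 fell to 17.7 and 18.1 FPKM in Ncr1Cre, against 33.7 and 35.4 FPKM in control. Among other ligands, Bmp3 had 11.9 and 11.2 FPKM in Ncr1Cre against 2.77 and 2.85 FPKM in control (1.72, SE 0.0907, adjusted p = 0.000288). Gdf7 fell to 7.15 and 5.39 FPKM in Ncr1Cre, against 22.3 and 14.1 FPKM in control, and Gdf11 fell to 0.980 and 1.03 FPKM, against 1.70 and 1.62 FPKM in control.

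Of the 9 tested genes that store or activate latent TGF-beta, 3 rose and 5 fell, beside 30.9% and 17.6% of all tested genes. The 3 that rose were Furin (log2 fold change 0.39, adjusted p = 0.0215), Itgav (0.30, adjusted p = 0.0315) and Itgb8 (0.50, adjusted p = 0.0271). Fbn1, the fibrillin to which latent complexes attach, had 59.6 and 56.9 FPKM in Ncr1Cre against 205 and 178 FPKM in control (3.29-fold lower, -1.70, SE 0.0883, adjusted p = 0.000282). Emilin1, whose product limits the maturation of TGF-beta, fell to 55.9 and 52.2 FPKM, against 114 and 100 FPKM in control, and Lrrc32, which displays latent TGF-beta on cells, fell to 11.8 and 11.6 FPKM, against 20.9 and 20.0 FPKM in control. Beside 17.6% of all tested genes that fell and 30.9% that rose, 8 of the 11 secreted antagonists and binding proteins fell and 0 rose. They included Htra1, the gene of a secreted protease that acts on family ligands, with 87.1 and 89.4 FPKM in Ncr1Cre against 213 and 211 FPKM in control, and the TGF-beta-binding proteoglycan gene Bgn, with 701 and 752 FPKM in Ncr1Cre against 1850.4 and 1898 FPKM in control. Dcn, a related proteoglycan gene that is also on the stromal list, had 1229 and 1319.6 FPKM in Ncr1Cre against 2827 and 3051 FPKM in control. Chrdl1, also among those that fell, had a mean of 0.962 FPKM in Ncr1Cre and reached the filter through control alone.

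Of 14 SMAD partners and regulators 2 rose and 5 fell, beside 30.9% and 17.6% of all tested genes. Among those that rose was the ubiquitin ligase gene Nedd4l at 11.0 and 12.1 FPKM in Ncr1Cre against 6.42 FPKM in each control library. Zeb1, a repressor of epithelial genes, fell to 8.20 and 7.53 FPKM, against 12.0 and 12.5 FPKM in control, and Zfyve9, the SMAD anchor, fell to 1.58 and 2.06 FPKM, against 3.37 and 3.96 FPKM in control. Of 14 other targets 2 rose and 7 fell, beside the same shares of all tested genes. Cdkn2b, a cell-cycle inhibitor that TGF-beta induces, rose to 6.71 and 5.26 FPKM in Ncr1Cre against 2.17 and 1.56 FPKM in control (1.29, SE 0.166, adjusted p = 0.00321), and Snai1, a repressor of epithelial genes, fell to 8.46 and 7.5 FPKM, against 16.7 and 14.0 FPKM in control.

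**Figure D4:**
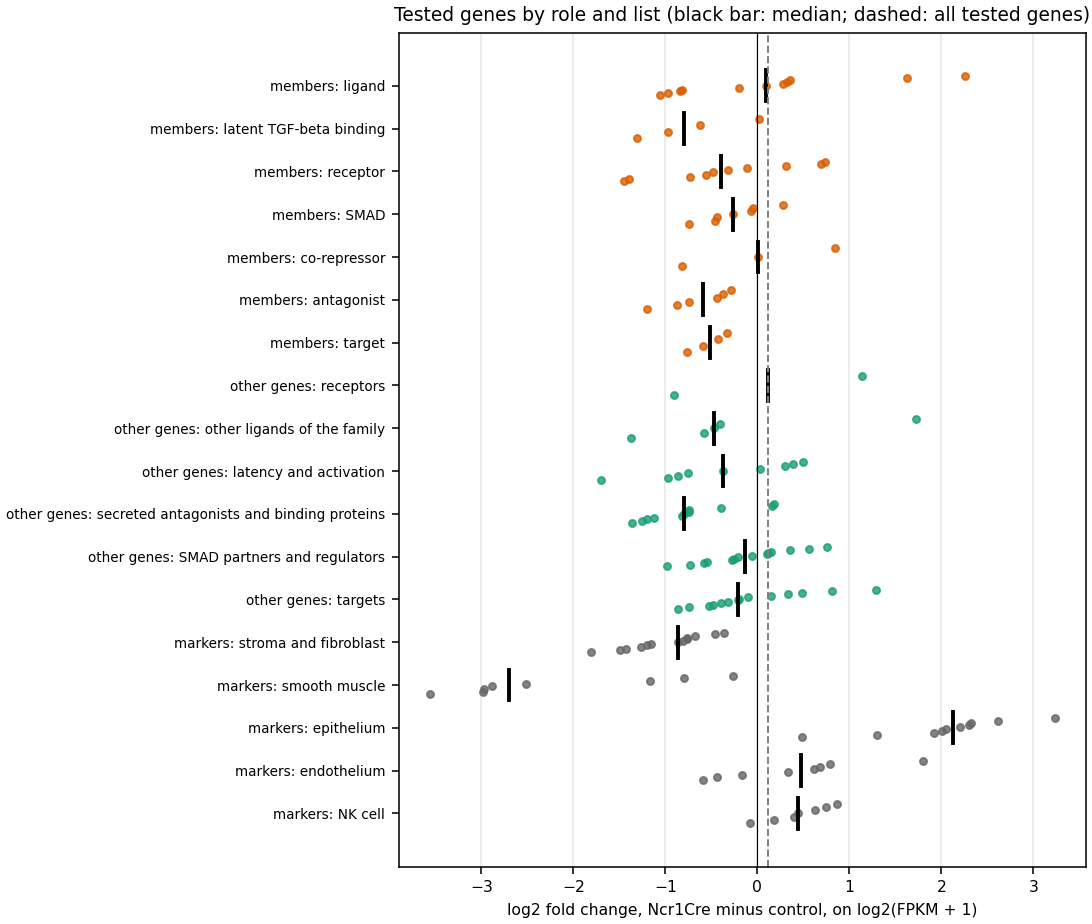
Log2 fold change of tested genes, Ncr1Cre minus control, by role of the pathway genes (Bmp1 not drawn), by group of the other pathway genes and by marker list, with a black bar at each median and a dashed line at the median of all tested genes, 0.11. Latent TGF-beta binding proteins, antagonists and targets lie mostly left of 0, as do the stromal markers (median -0.86), while epithelial markers lie to the right (median 2.13).

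The 49 genes covered a wide range of levels. Over the 4 libraries 7 genes averaged at least 100 FPKM, 24 lay from 10 to below 100 FPKM, 15 from 1 to below 10 FPKM and 3 below 1 FPKM. Relative to the median of all tested genes, the log2 fold changes were 2.15 for Tgfb2 and 1.52 for Gdf15, against -1.56 for Tgfbr3, -1.50 for Tgfbr2, -1.42 for Ltbp4, -1.31 for Fstl1 and -1.17 for Bmp2. Of the 30 called genes, 30 kept their direction and 20 kept their call under each alternative that gave a value, and these 20 were 3 with a higher level (Tgfb2, Gdf15 and, as a description, Bmpr1b) and 17 that fell. In the GRCm38 annotation, exons of 14 of the 49 genes overlap those of another gene, and the strand of the reads is not given in the sources used here, so reads of overlapping partners may not have been told apart. The overlap was 124 bases for Tgfb2 (with Gm29491), 446 bases for Acvr2a (with Orc4) and 1157 bases for Fstl3 (with Prss57), each on the opposite strand. The same limit holds for Tgfb3, Tgfbr3, Eng, Ltbp2, Ltbp3, Bmp4, Bmp5, Bmpr1a, Smad5, Chrd and Fst.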

How the data were processed

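RNA was measured in 4 libraries, 2 Ncr1Cre and 2 control, grouped by their labels. The rest of the genotype, and what needs it, is not reported here. The authors deposited 1 FPKM value per gene, from Cufflinks on mm9 according to the submitters' processing notes. No source used here gives the version, the aligner or the annotation. Library totals were estimated from the steps of low FPKM values of genes with a single transcript. Only 32.3% to 36.0% of these values came out whole within 0.02 fragments, so no count test was run. On libraries simulated with whole fragments and known transcript lengths the totals were off by at most 0.314%. That figure does not measure the error on the real libraries.

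The test was limma 3.58.1 in R 4.3.3 with an intensity trend on log2(FPKM + 1), two-sided, with Benjamini-Hochberg adjustment. On simulated data (5 runs of 11762 genes, 200 of them changed) it recovered 96.5% of log2 changes of 2 and 76.3% of those of 1, and 4.37% of calls were false. In the real libraries 5709 genes were called, many more than were changed in the simulation. The simulated spread was drawn from the fitted one, so these shares need not hold for the real libraries. The pathway genes, lists and branches were chosen with earlier results of these data known. The rule for named genes took pathway genes called with an absolute log2 fold change of at least 0.5 and up to 3 called genes with the smallest adjusted p in each group of other pathway genes, and the remaining pathway genes were given to account for each. Furin, Itgav, Itgb8, Chrdl1, Id2 and Id4 were named outside this rule. All 49 identifiers matched the reference by symbol. Alternatives were a pseudocount of 0.1, no filter, a filter at 5 FPKM, rescaling to a common median, quantile normalization, a replicate block and leaving out each library. Setting the median fold change to 0 was added after seeing the data.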

Additional observations from a re-analysis of the deposited data

How the results depend on the processing

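Over all genes 5709 were called, and 4037 to 6004 under the alternatives with all libraries. Of the pathway genes, 25 fell (22 to 29 under those alternatives), and 5 rose (3 where the mean had to reach 5 FPKM). In the TGF-beta branch 2 rose. In the BMP and activin branches 2 rose, but 1 with no filter, after median rescaling, after quantile normalization and with the median fold change set to 0, and 0 where the mean had to reach 5 FPKM, where Bmpr1b and Acvr2a were not tested. Leaving out 1 library gave 4092 to 5034 called genes, 19 to 25 pathway genes that fell (8 to 9 of the TGF-beta branch, 8 to 12 of the BMP and activin branches), 3 to 6 that rose, 1 to 2 of the TGF-beta branch and 1 to 3 of the BMP and activin branches (1 without Ncr1Cre replicate 1 or control replicate 2, 3 without Ncr1Cre replicate 2). The lone library was then assumed to vary like the others. For the fits with a library left out, shares of all tested genes by direction were not computed, so these counts have no background beside them. Among genes without a call, signs turned as follows, and the cause was not tested. After median rescaling, quantile normalization and a median fold change set to 0, Tgfb3 stood at -0.072, -0.055 and -0.018, Ltbp2 at -0.15, -0.19 and -0.10, and Skil at -0.16, -0.14 and -0.11. With a library left out, Ltbp2 ranged between -0.12 and 0.15, Skil between -0.088 and 0.095, Smad2 between -0.24 and 0.091, Smad1 between -0.13 and 0.027 and Smad5 between -0.69 and 0.15. Replicate numbers are only shared numbers: over genes the replicate differences of the genotypes correlated at 0.16. With the replicate block 6004 genes were called, and 7 pathway genes rose and 27 fell. Acvr2a was not called, and Smad3, Bmp8a, Nog, Acvr2b and Fstl3 were. Of the 7 that rose, Acvr2b and Bmpr1b reached the filter through Ncr1Cre alone and are given as a description. Depth limits genes below 1 FPKM.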
